A study of Bos grunniens with 12 samples.

Results

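MHC class II complex genes were examined in yak (Bos grunniens) testis at 2 ages. They were taken as every gene of the expression table whose GO annotation held the term "MHC class II protein complex". This gave 10 of 20953 gene identifiers. Of these, 9 were above 0 in at least 1 library, and 7 had a mean of at least 0.5 FPKM over the 6 input libraries. FPKM counts fragments relative to transcript length and to the size of the library, so it can be compared between genes. The 7 genes that reached this mean are called expressed below.

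MHC class II molecules are pairs of an alpha and a beta chain that carry peptides from engulfed proteins to the cell surface, where helper T cells read them. The invariant chain, CD74, fills the groove of a new pair and guides it to the endosome, where the DM pair exchanges the remnant of CD74 for a peptide and the DO pair modulates DM. Macrophages, dendritic cells and B cells are the main carriers of class II, interferon-gamma increases it through the transcriptional coactivator CIITA, and in the testis the class II positive cells known best are macrophages between and around the tubules.

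The 18M group held 3 healthy yaks of 1.5 years, described as before sexual maturity, whose testes were removed by castration. The 5Y group held 3 healthy yaks of 5 years, described as after sexual maturity, whose testes were taken after death. The deposited record speaks of slaughter here and the article of euthanasia. Age and the way of collection cannot be told apart. No genetic change or treatment is described for either group. Each animal gave an input library of fragmented poly(A) RNA and a library of fragments bound by an antibody against m6A, 12 libraries in all, and the gene levels here come from the 6 input libraries.

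Ages were taken from the sample titles and the growth protocol. In the deposited record, the field for developmental stage contradicts these ages in each sample, and an exchange of the groups would turn the sign of every difference below. The histology described in the study follows the ages of the titles. Its sections showed spermatogonia and few primary spermatocytes before maturity, and germ cells of every stage with sperm after maturity. That histology names no spermatids before maturity. Genes of spermatids, the haploid cells that follow meiosis, were nevertheless abundant in every library, those of the 18M group included, and the reason was not tested. Summed over 10 such genes, the level was 1575 to 1650 FPKM in the 18M libraries. In the 5Y libraries the sum was 365 FPKM in replicate 1, 1169 in replicate 2 and 964 in replicate 3. The group labelled as before sexual maturity thus held the higher level in each of its libraries, and 7 of the 10 spermatid genes were called lower in the 5Y group (limma, unadjusted p under 0.05 and a log2 fold change past 1, against 5.25% of all genes tested). None of the 10 had an adjusted p under 0.05. 5Y replicate 1 stood apart from the other 5Y libraries in this sum. Without it, 0 of the 10 were called lower, against 1.37% of all genes, and without 5Y replicate 2 all 10 were called lower, against 8.96%.

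The class II complex genes are described first as a group. All 7 expressed genes had a higher mean in the 5Y group, and in 6 of them every 5Y library was above every 18M library. Of the 7, ENSBGRG00000019169 and ENSBGRG00000018905 reached the mean of 0.5 FPKM only through the 5Y libraries. A higher 5Y mean was therefore fixed in advance for them. Over all 10 genes, the summed level was 26.7, 30.8 and 31.3 FPKM in 18M replicates 1 to 3. It was 103, 53.8 and 73.3 FPKM in 5Y replicates 1 to 3. The mean was 29.6 ± 2.55 FPKM (SD, n = 3) in the 18M group and 76.7 ± 24.8 FPKM (SD, n = 3) in the 5Y group. The lowest 5Y library, replicate 2, was still above the highest 18M library. As a share of all FPKM of a library, the sum was 0.0191% to 0.0231% in the 18M group and 0.0411% to 0.0887% in the 5Y group.

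The members were selected on the input FPKM of these same libraries, since the GO term was taken up for its enrichment among genes higher at 5 years. The differences between ages are therefore given as a description of the members, without a test. Among all 12437 genes with a mean of at least 0.5 FPKM, 19.8% were higher in the 5Y group without overlap, and the 6 of 7 expressed members are set beside that share only for orientation. In bulk tissue, a change in the number of cells of a type and a change in RNA per cell cannot be told apart. The median log2 fold change of the 7 expressed members, 5Y over 18M on log2(FPKM + 0.1), was 1.32, beside 0.04 for all genes tested. It was 1.07 without 5Y replicate 1. Leaving a library out cannot create overlap. The 6 of 7 members without overlap could thus become fewer only by falling below the mean of 0.5 FPKM, and none did.

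**Figure D1:**
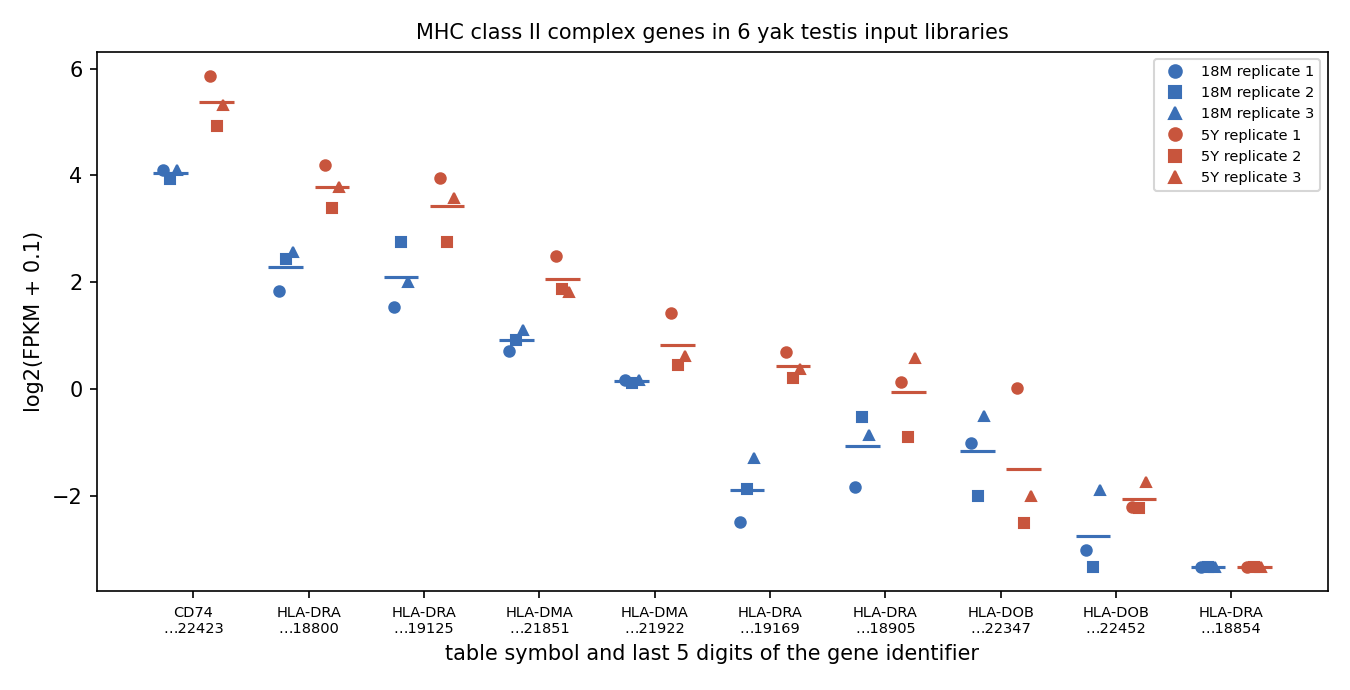
Level of each of the 10 MHC class II complex genes, as log2(FPKM + 0.1), in the 3 input libraries of the 18M group (blue) and of the 5Y group (red). Genes are ordered by mean FPKM, symbols mark replicates and horizontal lines mark group means. The red points lie above the blue points in the leftmost 6 genes, by the least margin in the HLA-DRA identifier ENSBGRG00000019125, and the gene at the right end is listed at 0 in each library.

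CD74, the invariant chain (ENSBGRG00000022423), had the highest level of the 10 genes. It was at 17.2, 15.2 and 17.0 FPKM in 18M replicates 1 to 3 and at 58.0, 30.3 and 39.9 FPKM in 5Y replicates 1 to 3. The 18M libraries lay close together and the 5Y libraries were spread more widely, with no overlap between them. The means were 16.4 ± 1.10 FPKM in the 18M group and 42.7 ± 14.1 FPKM in the 5Y group (SD, n = 3 each), a ratio of 2.60. The log2 fold change was 1.32 with a standard error of 0.24. CD74 held 49.3% to 64.4% of the summed class II level in the 18M libraries and 54.5% to 56.3% in the 5Y libraries, so its share was similar at both ages while the sum differed.

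The symbol HLA-DRA, the alpha chain of the DR pair that presents peptides at the surface, stood on 8 identifiers of the table, 5 of which carried the class II complex term. In this table a symbol is often repeated over several neighbouring identifiers (3871 symbols are on more than 1 identifier), so the symbol may not name each copy. The first HLA-DRA identifier, ENSBGRG00000018800, is called HLA-DRA below, and the others are given by their identifiers. Their chain was not determined here. Symbols of the DR beta chains, the DQ and DP chains and the DM beta chain were looked up under human and cattle names. None was found, so these chains are not named here. Class II genes are a family of related sequences, and only uniquely mapped reads were kept, so the split of reads among close copies is uncertain.

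HLA-DRA was second to CD74 by its mean level. It was at 3.46, 5.30 and 5.82 FPKM in 18M replicates 1 to 3 and 18.2, 10.4 and 13.7 FPKM in 5Y replicates 1 to 3. The groups did not overlap, and the lowest 5Y library was 1.78 times the highest 18M library. The means were 4.86 ± 1.24 and 14.1 ± 3.93 FPKM (SD, n = 3 each), a ratio of 2.90, and the log2 fold change was 1.51 with a standard error of 0.27. CD74 was 2.86 to 4.96 times HLA-DRA in the 18M libraries and 2.91 to 3.18 times HLA-DRA in the 5Y libraries. The ratio between invariant chain and HLA-DRA was thus in an overlapping range at both ages.

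ENSBGRG00000019125 came next in the order of levels. It was at 2.78, 6.62 and 3.90 FPKM in 18M replicates 1 to 3 and at 15.3, 6.63 and 11.8 FPKM in 5Y replicates 1 to 3. Here 18M replicate 2 and 5Y replicate 2 were nearly equal, with a ratio of 1.00, and the groups overlapped when the libraries were scaled to the same median or quantile normalized. The means were 4.43 ± 1.97 and 11.3 ± 4.36 FPKM (SD, n = 3 each), a ratio of 2.54, with a log2 fold change of 1.33 and a standard error of 0.39. HLA-DRA was above this gene in 5 of 6 libraries, and the distance between their means was smaller than the SD in either group.

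The other 3 members with the HLA-DRA symbol were low. ENSBGRG00000019169 was at 0.0787, 0.173 and 0.312 FPKM in 18M replicates 1 to 3 and at 1.51, 1.06 and 1.19 FPKM in 5Y replicates 1 to 3. Its groups did not overlap and its ratio of means, 6.70, was above that of the other expressed members, but the log2 fold change of 2.31 (standard error 0.40) depended on the pseudocount and was 0.93 with a pseudocount of 1. ENSBGRG00000018905 was at 0.180, 0.599 and 0.448 FPKM in 18M replicates 1 to 3 and at 0.996, 0.438 and 1.39 FPKM in 5Y replicates 1 to 3. Its groups overlapped, because 5Y replicate 2 was below 18M replicates 2 and 3, and its log2 fold change was 1.01 with a standard error of 0.52. Both of these genes reached a mean of 0.5 FPKM only through the 5Y libraries, where they had to be higher, so they carry little weight in a count of members. ENSBGRG00000018854 was listed at 0 in all 6 libraries.

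The DM pair loads peptides in the endosome. HLA-DMA, its alpha chain (ENSBGRG00000021851), was at 1.54, 1.78 and 2.05 FPKM in 18M replicates 1 to 3 and at 5.49, 3.55 and 3.42 FPKM in 5Y replicates 1 to 3. The groups did not overlap, and the lowest 5Y library was 1.66 times the highest 18M library. The means were 1.79 ± 0.257 and 4.15 ± 1.16 FPKM (SD, n = 3 each), a ratio of 2.32, and the log2 fold change was 1.14 with a standard error of 0.23. HLA-DRA was 2.25 to 2.98 times HLA-DMA in the 18M libraries and 2.93 to 4.02 times in the 5Y libraries.

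A further identifier with the HLA-DMA symbol, ENSBGRG00000021922, was at 1.03, 0.978 and 1.03 FPKM in 18M replicates 1 to 3. In 5Y replicates 1 to 3 it was at 2.59, 1.26 and 1.45 FPKM. The 18M libraries were nearly equal and 5Y replicate 1 stood above the other 5Y libraries. Its log2 fold change of 0.68 (standard error 0.29) was the smallest among the 7 expressed members. It was below HLA-DMA in all 6 libraries.

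The DO pair modulates DM and is best known in B cells. HLA-DOB, its beta chain (ENSBGRG00000022347), was at 0.400, 0.151 and 0.610 FPKM in 18M replicates 1 to 3 and at 0.915, 0.0769 and 0.150 FPKM in 5Y replicates 1 to 3. The libraries of both ages overlapped over nearly their whole range, unlike those of CD74 and HLA-DRA. ENSBGRG00000022452, with the same symbol, was at or below 0.198 FPKM in each library and listed at 0 in 18M replicate 2. The mean of 0.5 FPKM separated ENSBGRG00000018905 with 0.676 FPKM, just inside, from HLA-DOB with 0.384 FPKM, just outside.

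The order of levels was the same in large part at both ages. CD74 was above HLA-DRA in 6 of 6 libraries, ENSBGRG00000019125 was above HLA-DMA in 6 of 6, and ENSBGRG00000021922 was above ENSBGRG00000019169 in 6 of 6. The order of ENSBGRG00000019169 and ENSBGRG00000018905 turned with age: the first was lower in each 18M library and higher in 2 of 3 5Y libraries. The neighbours below this level (ENSBGRG00000018905, HLA-DOB and ENSBGRG00000022452) did not keep 1 order over the libraries.

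Within the 5Y group most expressed members followed 1 order of the replicates. Replicate 1 was highest in 6 of 7 expressed members and replicate 2 lowest in 6 of 7, against 38.5% and 41.6% of all genes tested. The order from replicate 1 over replicate 3 to replicate 2 held in 5 of 7, against 29.9% of all genes tested. The members were selected on these same libraries, so the shares of all genes are given only for orientation. That order was not particular to the members. It also held in IRF1, CD40 and PSMB8, described below, but not in CD274. Replicate 1 was 1.91 times replicate 2 in CD74, 1.75 times in HLA-DRA and 2.31 times in ENSBGRG00000019125. Within the 18M group replicate 1 was lowest in 5 of 7 expressed members, against 29.6% of all genes tested. The exceptions were ENSBGRG00000021922 and CD74, in which 18M replicate 2 was lowest.

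The annotation terms that the members share beyond the class II complex follow the path of class II through the cell. The term for presentation of exogenous peptide by class II was on 8 of 10 members and on 27 genes of the table, and lysosomal membrane was on 8 of 10. Vesicles between the endoplasmic reticulum and the Golgi and clathrin-coated endocytic vesicles were each named on 5 of 10. Interferon-gamma signaling was on 4 of 10. ENSBGRG00000018854 and ENSBGRG00000018905 had identical sets of 14 terms, and ENSBGRG00000019125 and ENSBGRG00000022452 had identical sets of 4 terms, although their levels were far apart.

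Other genes of the class II pathway were compared in the same fit of limma over all 12437 genes. Of 35 symbols with a gene in the table, 26 were tested. The listed symbols NFYA, CTSS, CTSD, CTSF, IFI30, MARCHF1, CD63, LAMP2 and ICOSLG had no gene there. By unadjusted p under 0.05 and a log2 fold change past 1, 2 were called higher in the 5Y group (IRF1 and CD40), beside 4.01% of all genes, and 0 were called lower. Without overlap, 11 of 26 were higher and 2 lower, beside 19.8% and 13.9% of all genes. The median log2 fold change was 0.14, beside 0.04 for all genes. No gene of the list had an adjusted p under 0.05 (the lowest was 0.154), a threshold that 0.0322% of all genes passed, and 6 had an unadjusted p under 0.05, beside 25.1% of all genes. Without 5Y replicate 2, 5 genes were called and 5 had an adjusted p under 0.05, but 16.3% of all genes were then called and 20.3% had an adjusted p under 0.05.

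Of the transcription factors and signaling genes that act on class II promoters, 12 were tested and 7 were higher in the 5Y group without overlap, beside 19.8% of all genes. An unadjusted p under 0.05 (limma) was reached by 3 of the 12, beside 25.1% of all genes. Of the 12, 1 was called higher, beside 4.01% of all genes. Their median log2 fold change was 0.26, beside 0.04 for all genes. IRF1, an interferon-induced factor, was at 2.57, 2.86 and 2.47 FPKM in the 18M libraries and at 9.14, 4.74 and 6.47 FPKM in the 5Y libraries. Its log2 fold change was 1.29 with a standard error of 0.24 (limma, unadjusted p = 0.00105, adjusted p = 0.154). IFNGR2, a chain of the interferon-gamma receptor, had a log2 fold change of 0.95 (standard error 0.24, limma adjusted p = 0.154). The other receptor chain, IFNGR1, differed by 0.14 (standard error 0.19) and its libraries overlapped.

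CIITA, the coactivator on which class II transcription depends, was below the mean needed for the test. It was at 0.270, 0.285 and 0.198 FPKM in the 18M libraries and at 0.725, 0.474 and 0.487 FPKM in the 5Y libraries, without overlap. IFNG, the gene of interferon-gamma itself, was listed at 0 in the 18M libraries and at 0.126 to 0.140 FPKM in the 5Y libraries. It was also below the mean needed for the test, and the limit behind a listed 0 is unknown. RFX5, a subunit of the factor that binds the X box of class II promoters, had a log2 fold change of -0.12 (standard error 0.14, limma adjusted p = 0.578). IRF1, IFNGR2 and CIITA thus had higher values in the 5Y group, while IFNGR1 and RFX5 overlapped between the ages.

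Of the genes for loading and traffic, 10 were tested and none was called, with 1 having an unadjusted p under 0.05. LGMN, a protease that acts on the invariant chain and antigens, had a log2 fold change of 0.62 (standard error 0.30, limma adjusted p = 0.239). CTSB, an endosomal protease, differed by 0.07 (standard error 0.26) and LAMP1, a lysosomal membrane protein, by -0.21 (standard error 0.17). CD82, a tetraspanin of class II compartments, was lower in the 5Y group without overlap, with a log2 fold change of -0.64 (standard error 0.27, limma unadjusted p = 0.0469, adjusted p = 0.195). The CD74 symbol also stood on ENSBGRG00000022490, which does not carry the class II complex term. That identifier was at 50.8, 52.1 and 53.8 FPKM in the 18M libraries and at 97.9, 58.1 and 65.9 FPKM in the 5Y libraries, with a log2 fold change of 0.46 (standard error 0.22, limma adjusted p = 0.223).

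Of the genes of the contact with T cells, 4 of 10 reached the mean needed for the test. CD40, the receptor through which helper T cells signal to presenting cells, was at 0.342, 0.505 and 0.312 FPKM in the 18M libraries and at 2.72, 1.18 and 1.60 FPKM in the 5Y libraries. Its log2 fold change was 1.93 with a standard error of 0.36 (limma, unadjusted p = 0.000931, adjusted p = 0.154). CD274, the ligand of the inhibitory receptor PD-1, had a log2 fold change of 0.72 (standard error 0.31, limma adjusted p = 0.206). The symbols LAG 3, an inhibitory receptor that binds class II, and CD28, a costimulatory receptor, were also tested, each on the higher of 2 identifiers, so the gene is uncertain. The LAG 3 identifier, ENSBGRG00000000358, was at 3.85, 5.87 and 4.41 FPKM in the 18M libraries and at 13.5, 6.98 and 8.60 FPKM in the 5Y libraries, with a log2 fold change of 0.99 (standard error 0.27, limma adjusted p = 0.154). The CD28 identifier, ENSBGRG00000012733, differed by -0.22 (standard error 0.17, limma adjusted p = 0.422) and overlapped between the ages. The costimulatory ligands CD80 and CD86 and the class II coreceptor CD4 were each at or below 0.545 FPKM in every library and overlapped between the ages.

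**Figure D2:**
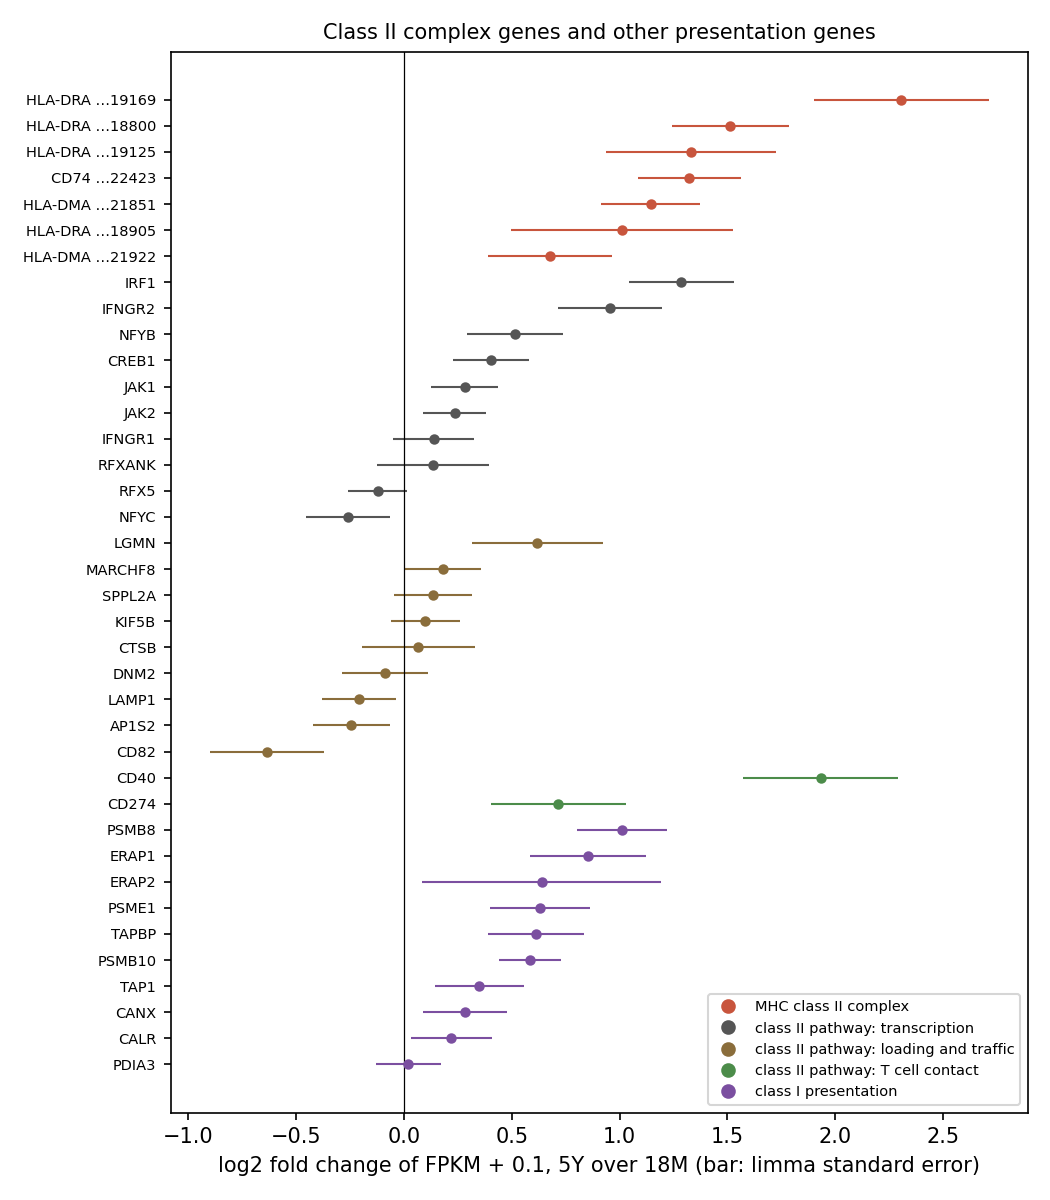
Log2 fold change of FPKM + 0.1, 5Y over 18M, of the 7 expressed MHC class II complex genes (red) and of other antigen presentation genes by role, with bars for the standard error of limma. The red points lie between 0.68 and 2.31, and those of loading and traffic lie on both sides of 0, between -0.64 and 0.62.

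Genes of MHC class I presentation, which shows peptides from inside the cell, were taken as the most similar pathway. The listed symbols B2M, TAP2, TAPBPL, PSMB9, NLRC5 and those of the class I heavy chains had no gene in the table. Of 11 genes tested, 5 were higher in the 5Y group without overlap, beside 19.8% of all genes. PSMB8, a subunit of the immunoproteasome, was the 1 gene called, beside 4.01% of all genes. PSMB8 was at 4.74, 6.11 and 5.04 FPKM in the 18M libraries and at 13.7, 8.47 and 10.6 FPKM in the 5Y libraries. Its log2 fold change was 1.01 with a standard error of 0.21 (limma adjusted p = 0.154), just past the limit of 1. The call was lost, leaving 0 genes, without 18M replicate 1, without 18M replicate 3 or without 5Y replicate 1. The median log2 fold change of the list was 0.58. TAPBP, which holds class I at the peptide transporter, differed by 0.61 (standard error 0.22, limma adjusted p = 0.168), and PDIA3, a chaperone of class I folding, by 0.02 (standard error 0.15). The difference between the class II and class I genes was not tested.

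Marker genes of cells that carry class II, and of other testis cells, are given beside these values. The summed level of 14 macrophage genes was 30.4 to 39.3 FPKM in the 18M libraries and 44.2 to 52.3 FPKM in the 5Y libraries. Of 9 tested, the complement genes C1QA, C1QB and C1QC were called higher in the 5Y group, with log2 fold changes of 1.07, 1.30 and 1.32, and the macrophage genes CD163 and AIF1 were called lower, with -1.16 and -1.27. Of all genes 4.01% were called higher and 5.25% lower. Without 5Y replicate 1, 1 macrophage gene was called higher and 1 lower, beside 1.82% and 1.37% of all genes. C1QB was at 2.76, 5.08 and 4.97 FPKM in the 18M libraries and at 17.6, 6.25 and 9.90 FPKM in the 5Y libraries, with the same order of the 5Y replicates as CD74. CD68 overlapped between the ages, with a log2 fold change of 0.00 (standard error 0.60). The macrophage genes therefore did not all have the direction of the class II genes.

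Dendritic cell genes (7 summed) were at 4.40 to 4.86 FPKM in the 18M libraries and 5.02 to 6.18 FPKM in the 5Y libraries, with 4 tested, none called and CLEC10A listed at 0 in each library. B cell genes (6 summed) were at 1.12 to 1.37 and 1.09 to 1.89 FPKM, with 2 tested and none called. Among the genes tested, IRF8 (dendritic cell) and CD79B (B cell) stood on an identifier that is not the first with the symbol. Which gene was tested is therefore uncertain, and neither entered the summed levels. Their mean levels were 57.6 and 62.4 FPKM, beside 1.76 and 0.0352 FPKM on the first identifiers. T cell genes (5 summed) were at 2.91 to 4.42 and 3.11 to 6.54 FPKM, with 3 tested and LCK, a kinase of the T cell receptor, called higher. Its log2 fold change was 1.47 (standard error 0.47), and that of CD3D was 0.94 (standard error 0.43). CD247 went the other way, with -1.77 (standard error 0.78), and overlapped between the ages. Endothelial genes (10 summed) were at 12.7 to 19.0 and 19.3 to 26.1 FPKM, with 7 tested and CLDN5, a tight junction gene, called higher. None of the genes of these lists had an adjusted p under 0.05 with all 6 libraries. Of all genes tested, 4.01% were called higher and 5.25% lower.

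Of the cells of the testis itself, Sertoli cell genes (7 summed) were at 77.5 to 94.9 FPKM in the 18M libraries. In the 5Y libraries they were at 111 to 263 FPKM. Most of this sum came from INHA. It was at 65.2, 64.7 and 56.4 FPKM in 18M replicates 1 to 3 and at 211, 81.2 and 100 FPKM in 5Y replicates 1 to 3. Of the Sertoli genes, 6 of 7 were higher without overlap, beside 19.8% of all genes, with none called. Without 5Y replicate 2, 4 of the 7 Sertoli genes were called, beside 16.3% of all genes. With any other library left out, 0 to 2 were called, beside 3.19% to 8.52% of all genes. Leydig cell genes (2 summed) were at 10.1 to 19.1 and 7.40 to 8.40 FPKM, with none called. From 5Y replicate 2 to 5Y replicate 1, the Sertoli sum differed by a ratio of 2.37, the macrophage sum by 1.19 and the spermatid sum by 0.312. The Sertoli ratio rests mostly on INHA. The summed class II level was highest in the 5Y library with the lowest spermatid sum and lowest in the 5Y library with the highest spermatid sum. The part of these cell types in the class II differences was not tested.

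**Figure D3:**
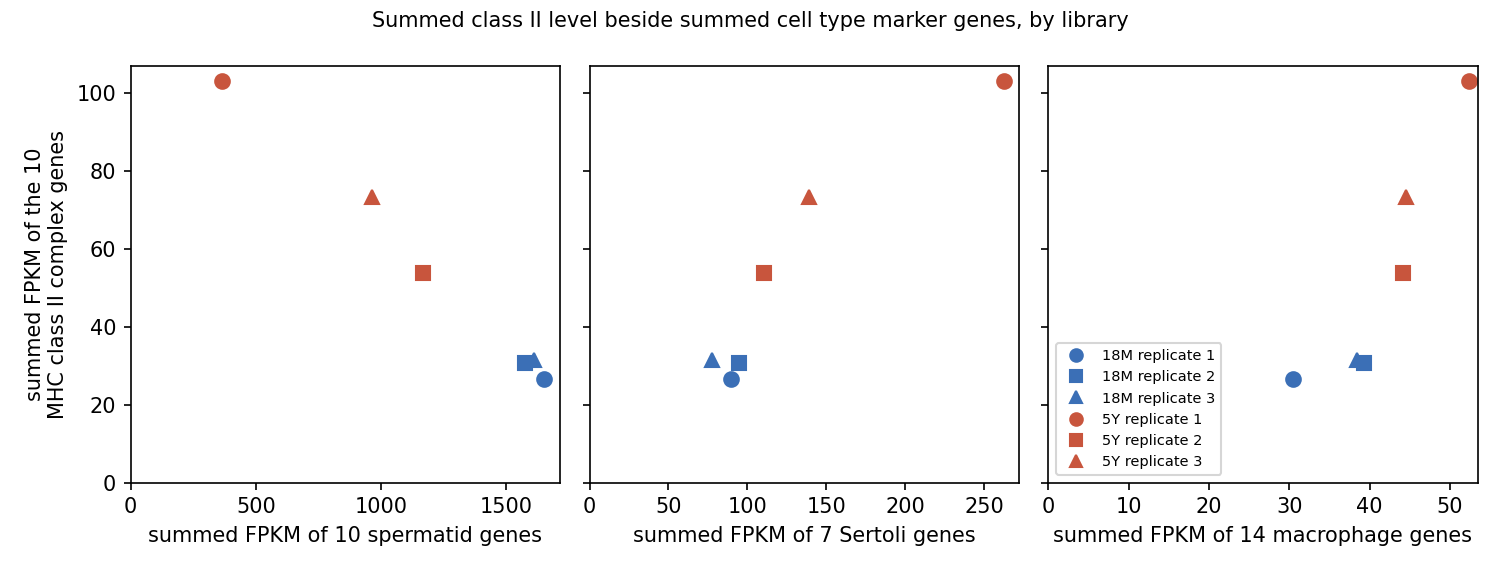
Summed FPKM of the 10 MHC class II complex genes (vertical axes) against the summed FPKM of spermatid, Sertoli cell and macrophage marker genes (horizontal axes), with 1 point for each input library. The 5Y libraries (red) lie above the 18M libraries (blue), and 5Y replicate 1 lies at 103 FPKM of class II beside 365 FPKM of spermatid genes. Most of the Sertoli sum comes from INHA.

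The library profile of the members was compared with that of all other genes tested. The profile was the mean over the 7 expressed members of log2(FPKM + 0.1), each centred on its mean over the 6 libraries, and likeness was the root-mean-square difference from it on the log2 scale. The 10 genes most alike had differences of 0.0485 to 0.149, beside a median of 0.752 for all genes tested. They were RRAGB, MYO5C, PARP14, UXT, CCDC8, LRRC75A, VIM, ZNF521, TRIM62 and MRPL12, of which MYO5C, UXT and MRPL12 stood on an identifier that is not the first with its symbol. VIM encodes vimentin, an intermediate filament of mesenchymal and Sertoli cells, and PARP14 is an ADP-ribosyltransferase known from macrophages. The cell types that carry the 10 genes were not examined here. VIM was at 7.48, 10.2 and 9.29 FPKM in the 18M libraries and at 28.9, 13.6 and 19.4 FPKM in the 5Y libraries. Among the members HLA-DRA lay closest to their mean profile, with a difference of 0.111, and ENSBGRG00000019169 lay farthest, with 0.545. By rank among all genes tested, HLA-DRA was at 5 and ENSBGRG00000019169 at 2546. Some genes that are not members thus lay closer than any member. The profile mixes the difference between ages that chose the members with the order of the replicates, and the points share their libraries.

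**Figure D4:**
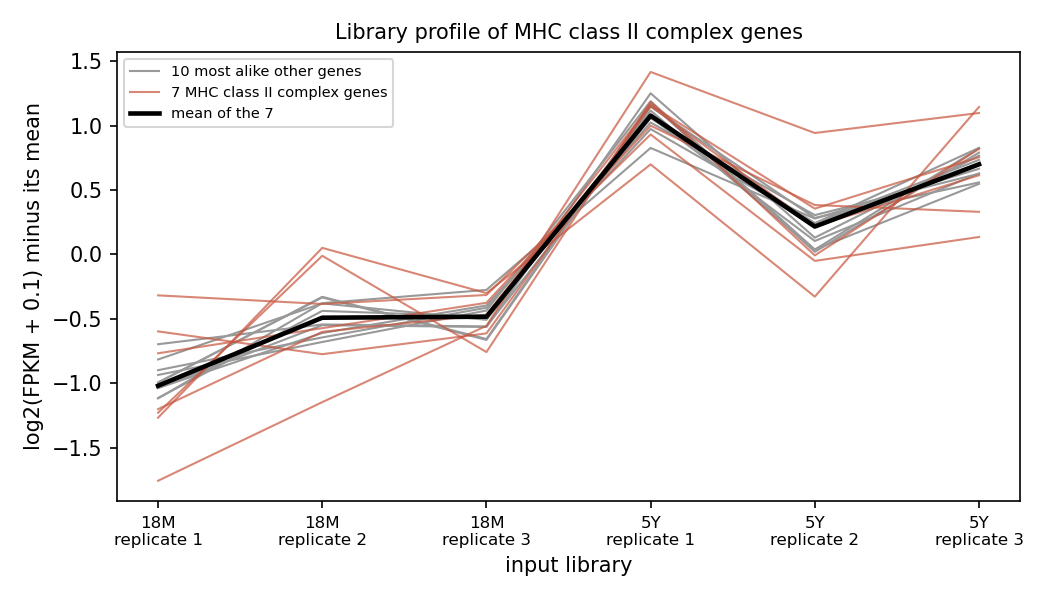
Log2(FPKM + 0.1) minus its mean over the 6 input libraries, for the 7 expressed MHC class II complex genes (red), their mean (black) and the 10 most alike other genes (grey). The black line is lowest at 18M replicate 1 and highest at 5Y replicate 1, and 5Y replicate 2 is the lowest of the 5Y libraries.

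Differential m6A peaks were counted from the deposited comparison of the ages, which held 1438 peaks on 1207 genes. None of the 10 class II complex genes carried a peak, beside 9.29% of the genes tested for expression that did. Of the class II pathway genes, NFYC, IRF1, JAK1 and CD40 carried 1 peak each. The peak of IRF1 was on chromosome 8 from 23323191 to 23323809 of LU_Bosgru_v3.0, in an annotated exon. The peak of CD40 was on chromosome 12 from 70474199 to 70475758, in the 3′ UTR. The table gives no direction for a peak, and peaks that did not differ between the ages were not analysed here.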

How the data were processed

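FPKM values per gene and input library were deposited by the authors. Reads had been trimmed (Trimmomatic), cleared of rRNA (SortMeRNA) and aligned by HISAT2 2.0.4 to the LU_Bosgru_v3.0 genome, with unique alignments kept. Which program gave the FPKM is not given in the sources used here. The width of each differential peak, in base pairs, was likewise deposited by the authors, who called peaks with MeTDiff (p of at most 0.05, fold of at least 1.5) and annotated them with ChIPseeker.

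Without fragment counts, the limit behind a listed 0 is unknown. Library sums were 116187 to 139921 FPKM. Among genes of very low value the median ratio of a library to 18M replicate 1 was 0.913 to 1.01. Only ratios near 1 were kept for this median, so it cannot compare the depth of the libraries.

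Genes with a mean of at least 0.5 FPKM were tested between the ages on the scale of log2(FPKM + 0.1), using lmFit and eBayes (trend) of limma 3.58.1 under R 4.3.3. Tests were two-sided, p-values were adjusted by Benjamini-Hochberg over all genes tested, and they measure the spread between 3 animals per group. The fold change understates differences of low genes. The script was tested on simulated data. Python 3.11.15, pandas 2.3.3, numpy 2.4.6 and matplotlib 3.10.9 served for the rest.

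The members and gene lists were chosen with earlier results of these data known. Named were all members, list genes with a row in the table and the 10 genes most alike in profile. One gene of the lists is not reported here. For a list symbol on several identifiers the one with the highest mean FPKM was taken. Only genes for which this was also the lowest identifier entered the summed levels, because symbols are repeated over neighbours. The alternatives were other pseudocounts, filters and scalings, eBayes without a trend, a replicate block and each library left out. The lowest identifier of each symbol, and the counts of marker genes, of lower calls and of pathway genes with an adjusted p under 0.05 with 1 library left out, were added after seeing the data. Libraries with the same replicate number in both groups did not deviate together (correlations of -0.09, -0.02 and 0.01). m6A-bound libraries, which have no value per gene here, reads and sequences were not analysed here.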

Additional observations from a re-analysis of the deposited data

How the results depend on the processing

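All 7 expressed members kept a positive log2 fold change under each alternative in which they were tested. The members were selected on these same libraries, so the kept sign is a description and not a test. ENSBGRG00000019169 and ENSBGRG00000018905 reached the mean of 0.5 FPKM only through the 5Y libraries, which fixed their sign. The balance of higher and lower calls over all genes is another measure. It reversed with some libraries left out, as given below. The median of the members was 1.05 to 1.55 with 1 library left out and 0.93 to 1.36 under the other settings. Under these other settings 5 or 6 members were without overlap. With a mean of at least 1 FPKM required, only 5 members were tested, and all 5 were without overlap. With 1 library left out 6 or 7 were. Leaving a library out cannot create overlap. That count could thus fall below 6 only if a member fell below the mean of 0.5 FPKM, and none did. For ENSBGRG00000019169 the log2 fold change was 0.93 with a pseudocount of 1 and 2.85 with 0.01. Over all genes, 1152 were called, 501 with a pseudocount of 1, and from 394 (without 5Y replicate 1) to 2034 (without 5Y replicate 2) with 1 library left out. Higher in the 5Y group were 499, 123 with a pseudocount of 1, and from 225 to 919 with the same libraries left out. Lower were 653, and from 169 to 1115 with the same libraries left out; higher calls outnumbered lower calls without 18M replicate 1 (517 and 384), 18M replicate 3 (452 and 379) or 5Y replicate 1 (225 and 169). An adjusted p under 0.05 was reached by 4 genes, and by 2526 without 5Y replicate 2. Of the class II pathway 2 genes were called, 4 with no filter, 1 with a pseudocount of 1, and 2 to 5 with 1 library left out. Of class I presentation 1 gene was called, 0 with a pseudocount of 1 or with libraries scaled to the same median, and 0 to 1 with 1 library left out. With the lowest identifier of each symbol, chosen after seeing the data, 2 and 1 were called. With the replicate block 1160 genes were called, 504 of them higher, and 1 gene had an adjusted p under 0.05. The block did not change the counts of pathway and class I genes called, and it cannot change which members overlap. The same-numbered libraries share only a number. The causes of these shifts were not tested. Low values limit HLA-DOB, ENSBGRG00000022452, CIITA and IFNG, and the fragments behind a value are unknown.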

Other observations

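Class II symbols also stood on 9 identifiers that do not carry the class II complex term. HLA-DOA, the alpha chain of the DO pair (ENSBGRG00000021588), was at 0.324, 0.390 and 0.508 FPKM in 18M replicates 1 to 3 and at 0.649, 0.545 and 0.896 FPKM in 5Y replicates 1 to 3, without overlap. ENSBGRG00000021991, with the symbol HLA-DMA, was at 2.15, 2.21 and 2.54 FPKM in the 18M libraries and at 4.87, 2.16 and 2.76 FPKM in the 5Y libraries, which overlapped. ENSBGRG00000019265, with the symbol HLA-DRA, was at 0.345, 0.667 and 0.0781 FPKM in the 18M libraries and at 1.66, 0.587 and 2.06 FPKM in the 5Y libraries, which overlapped as well. ENSBGRG00000019110, ENSBGRG00000022408 and ENSBGRG00000022571 were listed at 0 in each library.

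The repeated symbols can be seen elsewhere in the table. The symbol SPATA22 stood on 10 identifiers, of which 6 carried the annotation of olfactory receptor activity. In all, 11160 identifiers shared their symbol with another identifier. Of 22 pairs with a shared symbol and a position in the peak table, 21 were on the same chromosome or contig.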
